A study of Homo sapiens with 24 samples.

Results

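Long noncoding transcripts and the host transcripts of small RNAs were taken from the table by their symbols. They comprise LINC genes, genes with an -AS or -DT ending, SNHG genes, microRNA host genes other than MIR210HG, and GAS5. The rule found 198 of the 9822 genes in the table. Of these, 37 were intergenic (LINC), 143 were antisense or divergent (134 with an -AS ending and 9 with a -DT ending) and 18 were small-RNA hosts (12 SNHG genes, 5 microRNA hosts and GAS5). NEAT1 and MALAT1 were not analysed here. The cells were MOLT4, an established human T-cell acute lymphoblastic leukaemia line, grown in serum-supplemented RPMI1640 medium in all groups. They received SK-3-91, a pan-kinase degrader, or the solvent DMSO, and were collected at 1, 4 and 8 h. A degrader of this type brings its target proteins to a ubiquitin ligase, and no dose is stated in the labels read here. The 6 groups (DMSO and SK-3-91 at each time) held 4 libraries each, 24 in all. Nothing says that the 4 came from different cultures, and p-values then rest on a spread between libraries that may be purely technical.

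Many long noncoding RNAs are spliced and polyadenylated like messenger RNAs but are not translated into a stable protein. An antisense transcript runs from the opposite strand of a named gene, and a divergent transcript starts beside its promoter and runs the other way. Small nucleolar RNA (snoRNA) host genes carry snoRNAs in their introns. The snoRNAs guide chemical modification of ribosomal RNA, while the spliced host transcript is exported and degraded, often by nonsense-mediated decay. Several host transcripts start with a run of pyrimidines, the terminal oligopyrimidine start that also marks ribosomal protein messenger RNAs. MicroRNA host genes carry microRNA hairpins in the same way, MIR17HG being the primary transcript of the miR-17-92 cluster.

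The start of a host transcript is where a pyrimidine run would be read, so the windows around the annotated starts of 8 hosts are shown, 20 bases before the start and 30 from it. The sequences are from RefSeq (GRCh38.p14), 5′ to 3′ on the strand of the gene, and capitals mark a C at the start base followed by at least 4 bases that are C or T. SNHG12, SNHG1, SNHG7 and SNHG16 were lower with SK-3-91 at all 3 times, GAS5 and SNHG8 were lower at 1 h and higher at 8 h, and SNHG5 and SNHG29 were higher at 4 and 8 h.
SNHG12 (chr1:28581844-28581893, minus strand): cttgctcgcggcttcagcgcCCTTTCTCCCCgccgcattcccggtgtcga
SNHG1 (chr11:62855856-62855905, minus strand): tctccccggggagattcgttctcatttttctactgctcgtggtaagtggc
SNHG7 (chr9:136728155-136728204, minus strand): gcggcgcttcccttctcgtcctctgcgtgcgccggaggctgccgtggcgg
SNHG16 (chr17:76557744-76557793, plus strand): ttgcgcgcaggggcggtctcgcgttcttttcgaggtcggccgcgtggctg
GAS5 (chr1:173869016-173869065, minus strand): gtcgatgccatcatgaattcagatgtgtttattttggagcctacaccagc
SNHG8 (chr4:118278742-118278791, plus strand): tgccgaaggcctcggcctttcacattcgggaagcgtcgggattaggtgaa
SNHG5 (chr6:85678704-85678753, minus strand): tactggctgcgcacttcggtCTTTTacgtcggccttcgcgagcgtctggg
SNHG29 (chr17:16438967-16439016, plus strand): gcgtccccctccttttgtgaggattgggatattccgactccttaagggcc
Of the 15 hosts with a window, 2 held the run at the annotated start (13.3%), SNHG12 and SNHG5, one from the hosts that fell and the other from those that rose. The same run stood at the start in 4.07% of all 35116 RefSeq promoter windows, in 5.37% of the windows of genes in the count table and in 56.0% of the 75 windows of cytosolic ribosomal protein genes. TATAAA, read on both strands from 250 bases before to 50 after the start, was in 4 of 15 host windows (26.7%) and in 11.5% of all windows, or 5.67% of the 11872 windows of genes in the count table. Of the other motifs searched in the 15 host windows, CCAAT was in 6 (40%, against 35.2% of count-table windows), GGGCGG in 7 (46.7%, against 67%) and CACGTG in 1 (6.67%, against 9.91%). TGACGTCA and GTAAACA were in 0 of the 15 (2.95% and 2.54% of count-table windows). A match describes letters only, and an annotated start may differ from the start used in these cells.

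The microRNAs of MIR17HG are shown because this host rose, and those of MIR497HG because it rose too. Capitals mark the seed, bases 2 to 8.
hsa-miR-17-5p (chr13:91350618-91350640, plus strand): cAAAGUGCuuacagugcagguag
hsa-miR-20a-5p (chr13:91351072-91351094, plus strand): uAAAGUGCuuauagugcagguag
hsa-miR-18a-5p (chr13:91350756-91350778, plus strand): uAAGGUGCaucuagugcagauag
hsa-miR-19a-3p (chr13:91350939-91350961, plus strand): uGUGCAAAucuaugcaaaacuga
hsa-miR-19b-3p (chr13:91351245-91351267, plus strand): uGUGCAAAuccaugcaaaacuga
hsa-miR-92a-3p (chr13:91351361-91351382, plus strand): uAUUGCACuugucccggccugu
hsa-miR-195-5p (chr17:7017667-7017687, minus strand): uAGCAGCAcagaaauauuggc
hsa-miR-497-5p (chr17:7017979-7017999, minus strand): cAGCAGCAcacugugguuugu
hsa-miR-17-5p and hsa-miR-20a-5p share the seed AAAGUGC, hsa-miR-19a-3p and hsa-miR-19b-3p share GUGCAAA, and hsa-miR-195-5p and hsa-miR-497-5p share AGCAGCA. The counts below are of the host transcripts, and mature microRNAs were not measured.

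Counted reads ranged from 6.86 to 14.6 megareads per library. Totals were lower with SK-3-91 at each time (13.57 to 13.65 against 14.01 to 14.31 megareads at 1 h, 10.6 to 10.9 against 14.3 to 14.5 at 4 h, 6.86 to 8.96 against 13.6 to 14.6 at 8 h). The exact two-sided permutation p was 0.0286 at each time, the smallest that 4 against 4 allows. Of 18 T-lineage leukaemia markers, 16 were in the table, with summed levels from 4200 to 5083 counts per megaread (CPM). TAL1 and LMO1 were not analysed here. Among markers of other cell types, CD79A (B cell) was at 6.35 to 10.4 CPM in DMSO and at 9.61 to 30.5 CPM with SK-3-91. PECAM1 (endothelial) was at 32.9 to 38.9 CPM in DMSO and 37.5 to 40.3 CPM with SK-3-91 at 1 h. PECAM1 at 8 h was at 42.7 to 43.7 CPM in DMSO and at 15.7 to 20.8 CPM with SK-3-91. All libraries were of the MOLT4 line, and these transcripts alone do not show that other cell types were present. In bulk RNA, fewer cells and less RNA per cell cannot be told apart.

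Small-RNA hosts were the class with the highest levels per length. Their median in the DMSO libraries was 12.9 CPM per kilobase of the gene width, against 2.67 for intergenic transcripts, 4.26 for antisense or divergent ones and 12.1 over all genes. The highest hosts were SNHG29 at 123, SNHG6 at 103, SNHG8 at 83.8 and SNHG1 at 71.2 CPM per kilobase. MIF-AS1 was higher still at 293, but 46.5% of its exon bases lie opposite exons of another gene. The counting is not stated to use strand, so reads of such a gene and its opposite-strand neighbour cannot be told apart. Members with at least 20% of exon bases opposite other exons, or at least 20% of their 32-base words shared with another gene, are called uncertain here. There were 76 of them (8 intergenic, 63 antisense or divergent, 5 hosts), beside 8 with no match in the annotation used for this.

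A gene was called where its adjusted p in the edgeR quasi-likelihood test (Benjamini-Hochberg over all genes) was under 0.05. At 1 h 30 of the 198 members were higher with SK-3-91 (24.9% of all genes tested were) and 45 were lower (29.4% of all genes). At 4 h 80 were higher (42% of all genes) and 80 were lower (45.9%), and at 8 h 82 were higher (41.3%) and 83 were lower (48.1%). The median log2 fold changes of the members were -0.01, -0.01 and -0.03 at 1, 4 and 8 h, beside 0.01, -0.05 and -0.11 over all genes. Members were called in either direction in 37.9%, 80.8% and 83.3% of cases at 1, 4 and 8 h, less than the 54.3%, 87.9% and 89.4% of all genes. Their counts were lower, and the median SE of a log2 fold change at 1 h was 0.10 for members and 0.06 for all genes.

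The split of higher against lower calls depends on the scaling. Without scaling factors the median of all genes moved by -0.30 at 4 h and -0.43 at 8 h on the log2 scale. The members then split into 59 higher and 105 lower at 4 h and into 58 higher and 117 lower at 8 h. All 9822 genes split into 2871 higher and 5752 lower at 4 h and into 2778 higher and 6145 lower at 8 h. All fold changes below use TMM scaling, so each is set against the trimmed mean of the other genes. It is neither a change in the plain share of reads nor one in copies per cell.

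**Figure D1:**
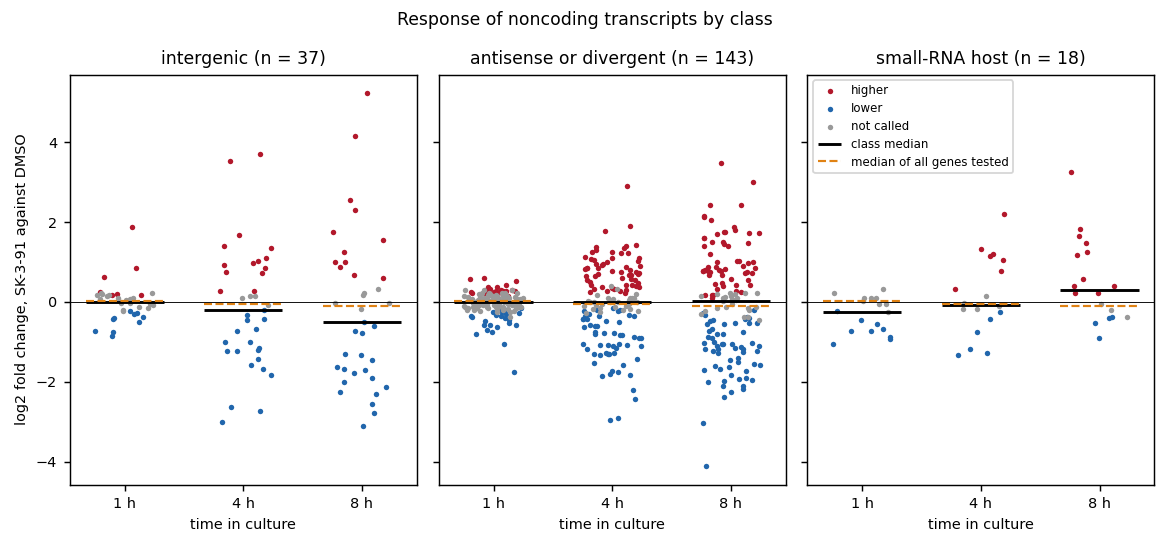
Log2 fold change of SK-3-91 against DMSO (vertical axis) at 1, 4 and 8 h for the 37 intergenic, 143 antisense or divergent and 18 small-RNA host transcripts, 1 point a gene, coloured by call (adjusted p under 0.05). Solid lines mark the class median and dashed lines the median of all 9822 genes; the host median goes from -0.24 at 1 h to 0.31 at 8 h.

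More small-RNA hosts were lower than higher at 1 h, and the hosts divided at 4 and 8 h. At 1 h 9 of 18 hosts were lower (29.4% of all genes were) and 0 were higher (24.9%). Their median log2 fold change was -0.24 (lowest -1.05, highest 0.32). By RLE factors 3 hosts and by DESeq2 1 host passed as higher at 1 h, where edgeR with TMM called 0, while both also gave 9 lower calls. Of all 9822 genes, 3249 were higher and 2573 lower by RLE factors, and 3214 and 2536 by DESeq2. At 4 h 7 hosts were higher (42% of all genes were) and 6 lower (45.9%), with a median of -0.07. At 8 h 11 were higher (41.3%) and 4 lower (48.1%), with a median of 0.31. Without scaling factors the 8 h split was 7 higher and 9 lower, and at 4 h 10 hosts were lower. All 9822 genes then gave 2778 higher and 6145 lower at 8 h, and 5752 lower at 4 h. The summed share of counted reads, which uses no scaling factor, was 0.124% to 0.131% in DMSO and 0.0981% to 0.104% with SK-3-91 at 1 h. At 8 h it was 0.105% to 0.111% in DMSO and 0.139% to 0.152% with SK-3-91. SNHG29 alone, the host with most reads, was at 0.0316% to 0.0369% in DMSO and at 0.067% to 0.0762% with SK-3-91 at 8 h. The other 17 hosts together were at 0.0707% to 0.0759% in DMSO and at 0.072% to 0.0797% with SK-3-91 at 8 h, with overlap. At 1 h these 17 were at 0.0857% to 0.0926% in DMSO and at 0.0598% to 0.0625% with SK-3-91. The lower summed share at 1 h thus held without SNHG29, and the higher one at 8 h did not.

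**Figure D2:**
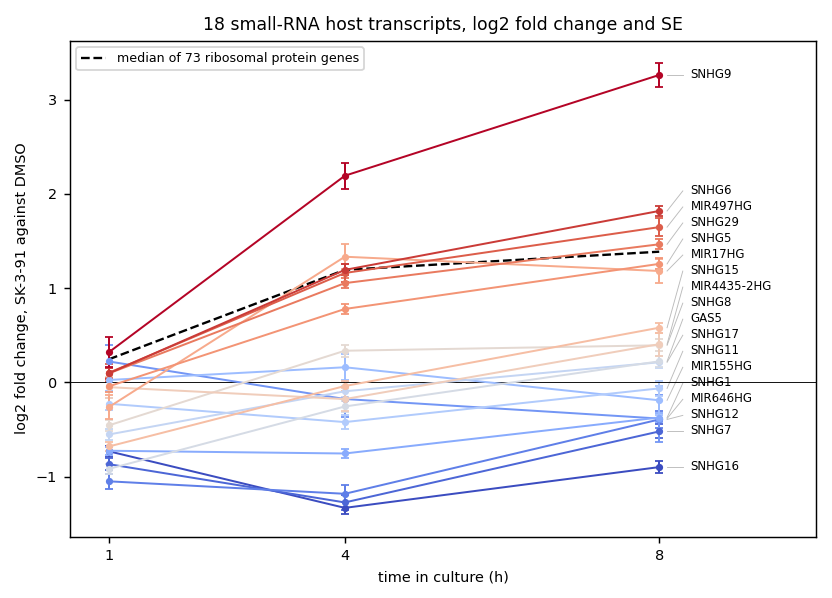
Log2 fold change of SK-3-91 against DMSO with its standard error for each of the 18 small-RNA hosts at 1, 4 and 8 h, and the median of 73 cytosolic ribosomal protein genes (dashed). SNHG9, SNHG6, MIR497HG, SNHG29, SNHG5 and MIR17HG stand above 1 at 8 h, and SNHG16, SNHG7, SNHG12 and SNHG1 are below 0 at all 3 times.

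SNHG12, SNHG1, SNHG7 and SNHG16 were lower at all 3 times. SNHG12, a host of H/ACA and C/D box snoRNAs, was at 32, 33.3, 36.9 and 42.7 CPM in the DMSO libraries at 1 h and at 15.6, 17.9, 19.6 and 16.9 CPM with SK-3-91. SNHG12 at 4 h was at 34.4, 29, 32.6 and 35 CPM in DMSO and at 13.2, 14.3, 14.8 and 15.4 CPM with SK-3-91. SNHG12 at 8 h was at 29, 28.7, 26.3 and 29.7 CPM in DMSO and at 24.3, 21.5, 19.9 and 20.6 CPM with SK-3-91. Treated and control libraries did not overlap at any time, and the gap was widest at 4 h and narrowest at 8 h. It fell by 1.05 ± 0.08 (SE) on the log2 scale at 1 h (adjusted p = 1.7e-14), by 1.18 ± 0.09 at 4 h and by 0.39 ± 0.09 at 8 h (adjusted p = 0.00018).

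SNHG1, whose introns hold a series of C/D box snoRNAs, was at 229, 236, 252 and 233 CPM in DMSO and at 135, 149, 146 and 145 CPM with SK-3-91 at 1 h. SNHG1 at 8 h was at 191, 177, 176 and 178 CPM in DMSO and at 139.8, 137, 136 and 145 CPM with SK-3-91. All treated libraries lay below all controls, and in DMSO alone SNHG1 fell by 0.39 ± 0.04 on the log2 scale from 1 to 8 h. SNHG1 had log2 fold changes of -0.72 ± 0.04 (1 h), -0.75 ± 0.05 (4 h) and -0.37 ± 0.05 (8 h, adjusted p = 1.8e-09).

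SNHG7, a host of H/ACA box snoRNAs, was at 36.2, 36.7, 36.5 and 37.2 CPM in DMSO and at 15.5, 15.8, 14.5 and 14.9 CPM with SK-3-91 at 4 h, with no overlap. SNHG7 had log2 fold changes of -0.87 ± 0.06 (1 h), -1.27 ± 0.07 (4 h) and -0.52 ± 0.07 (8 h, adjusted p = 3.6e-08). SNHG16, a host of C/D box snoRNAs, was at 47.7, 51.3, 52.5 and 46.7 CPM in DMSO and at 20.3, 18.3, 21.3 and 19.1 CPM with SK-3-91 at 4 h. The treated libraries were again all lower, and it had log2 fold changes of -0.73 ± 0.06 (1 h), -1.33 ± 0.06 (4 h) and -0.90 ± 0.07 (8 h, adjusted p = 1.1e-15). Both are uncertain, since 25.2% of the exon bases of SNHG7 and 30.6% of those of SNHG16 lie opposite exons of other genes.

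GAS5, SNHG15, SNHG17 and SNHG8 were lower at 1 h and higher at 8 h. GAS5, a C/D box host named for its accumulation in growth-arrested cells, was at 64.5, 66, 63.6 and 65.2 CPM in DMSO and at 34, 32.8, 34.7 and 36.1 CPM with SK-3-91 at 1 h. GAS5 at 4 h was at 58.3, 53.8, 55.9 and 55.8 CPM in DMSO and at 42.7, 49.4, 45.7 and 49.8 CPM with SK-3-91. GAS5 at 8 h was at 51.2, 51.8, 50.3 and 47.3 CPM in DMSO and at 65.1, 55.3, 57.9 and 56 CPM with SK-3-91. The treated libraries were below all controls at 1 and 4 h and above all controls at 8 h, and the controls themselves declined. GAS5 had log2 fold changes of -0.92 ± 0.05 (1 h, adjusted p = 2e-18), -0.25 ± 0.05 (4 h) and 0.22 ± 0.06 (8 h, adjusted p = 0.00032). Its response rose by 1.14 from 1 to 8 h, a contrast added after seeing the data in which 14 of 18 hosts rose (41.4% of all genes) and 0 fell (44%).

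SNHG15, an H/ACA box host, was at 89, 92.5, 90 and 89.4 CPM in DMSO and at 53.4, 55.5, 59.8 and 56.7 CPM with SK-3-91 at 1 h. SNHG15 at 8 h was at 75.1, 72, 63.8 and 68.9 CPM in DMSO and at 112, 94.9, 110.1 and 103 CPM with SK-3-91. The order of the groups was thus inverted between 1 and 8 h with no overlap at either time, while at 4 h the groups overlapped. SNHG15 had log2 fold changes of -0.68 ± 0.05 (1 h), -0.04 ± 0.05 (4 h) and 0.58 ± 0.05 (8 h, adjusted p = 5.9e-13). SNHG17 had log2 fold changes of -0.55 ± 0.05, -0.09 ± 0.06 and 0.21 ± 0.06 at the same times.

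SNHG8, an H/ACA box host, was at 58.1, 67.3, 64 and 63.7 CPM in DMSO and at 51.2, 43.8, 45.5 and 44.2 CPM with SK-3-91 at 1 h. SNHG8 at 4 h was at 48, 52.1, 48.4 and 52.7 CPM in DMSO and at 60.6, 64.7, 61.2 and 67.5 CPM with SK-3-91. SNHG8 at 8 h was at 57.6, 57.1, 56.1 and 58 CPM in DMSO and at 85.6, 76.4, 75.4 and 63.1 CPM with SK-3-91. It was below the controls at 1 h and above them at 4 and 8 h, again without overlap. SNHG8 had log2 fold changes of -0.45 ± 0.06 (1 h, adjusted p = 3.5e-08), 0.34 ± 0.06 (4 h) and 0.39 ± 0.06 (8 h, adjusted p = 4e-07). Without scaling factors the 8 h values of GAS5, SNHG17 and SNHG8 turned to -0.21, -0.22 and -0.04, so their direction at 8 h depends on the scaling, and that of SNHG15 kept its sign.

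**Figure D3:**
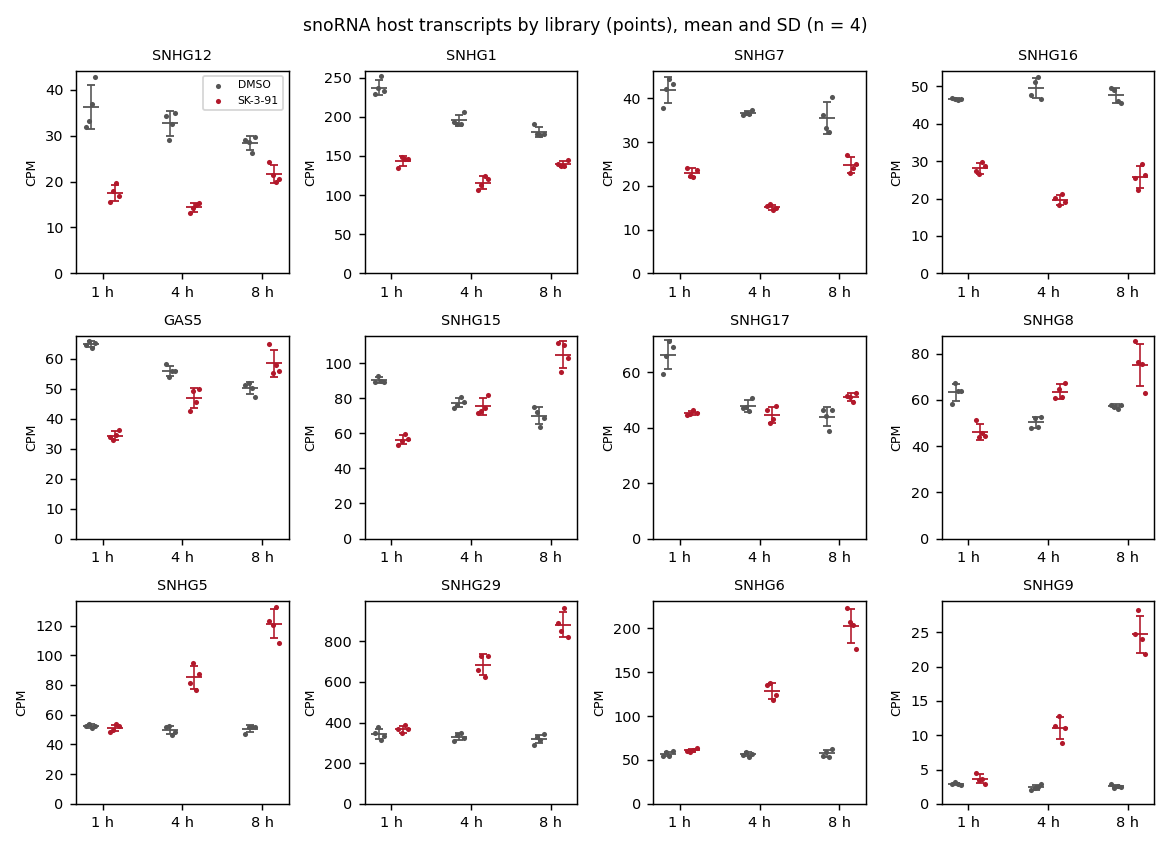
CPM (TMM-scaled) of 12 snoRNA hosts in each DMSO (grey) and SK-3-91 (red) library at 1, 4 and 8 h, with the mean and SD of 4 libraries; each panel has its own vertical axis from 0. The top row stays below the controls, the middle row crosses them, and the bottom row rises at 4 and 8 h.

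SNHG5, SNHG29, SNHG6 and SNHG9 were not called at 1 h and were higher at 4 and 8 h. SNHG5, a C/D box host, was at 51.5, 52.1, 46.6 and 48.1 CPM in DMSO and at 81.6, 94.8, 76.6 and 87.4 CPM with SK-3-91 at 4 h. SNHG5 at 8 h was at 47, 51.6, 51.8 and 51.8 CPM in DMSO and at 123, 120.3, 132 and 109 CPM with SK-3-91. The treated libraries were above all controls at both times, and the controls were at a similar level at both. SNHG5 had log2 fold changes of -0.04 ± 0.06 (1 h), 0.78 ± 0.06 (4 h) and 1.26 ± 0.06 (8 h, adjusted p = 9.4e-23).

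SNHG29, a C/D box host and the member with the most host reads, was at 309, 339, 347 and 324 CPM in DMSO and at 658, 728, 626 and 726 CPM with SK-3-91 at 4 h. SNHG29 at 8 h was at 291, 329, 315 and 342 CPM in DMSO and at 889, 852, 965 and 824 CPM with SK-3-91. There was no overlap at either time, and the log2 fold change was 1.05 ± 0.05 at 4 h and 1.47 ± 0.06 at 8 h (adjusted p = 8.9e-26). SNHG6, a C/D box host, was at 54.8, 59.4, 53.5 and 62.2 CPM in DMSO and at 223, 207, 204 and 177 CPM with SK-3-91 at 8 h. All treated libraries were far above the controls, with log2 fold changes of 1.19 ± 0.06 at 4 h and 1.82 ± 0.06 at 8 h. SNHG6 is uncertain, with 29.3% of its exon bases opposite other exons, MCMDC2 being the gene that overlaps most.

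SNHG9, a short H/ACA box host, rose most of the 18 hosts. It was at 2.83, 3.12, 2.87 and 2.8 CPM in DMSO and at 4.49, 3.54, 3.55 and 2.96 CPM with SK-3-91 at 1 h, where the groups overlapped. SNHG9 at 4 h was at 2.07, 2.33, 2.38 and 2.87 CPM in DMSO and at 11.4, 12.9, 8.86 and 11 CPM with SK-3-91. SNHG9 at 8 h was at 2.89, 2.33, 2.58 and 2.51 CPM in DMSO and at 24.7, 28.3, 24 and 21.9 CPM with SK-3-91. The treated level rose at each step while the controls did not, and the log2 fold change reached 3.26 ± 0.12 at 8 h (adjusted p = 1.3e-25). SNHG9 rests on few reads in DMSO, 159 over the 4 libraries at 8 h.

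Across the 18 hosts, Spearman's rho between gene width and the log2 fold change took the values -0.38, -0.49 and -0.60 at 1, 4 and 8 h. Over all genes it was -0.26, -0.07 and 0.06. These are descriptions across genes that share libraries, and the shortest host, SNHG9, is also the one that rose most. Among hosts the change in response from 4 to 8 h was upward in 14 of 18 (35.6% of all genes) and downward in 0 (33%). From 1 to 4 h it was upward in 10 (40.6%) and downward in 2 (39.9%).

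MIR17HG was at 6.38, 6.31, 8.07 and 7.15 CPM in DMSO and at 5.53, 6.2, 4.98 and 6.6 CPM with SK-3-91 at 1 h, with overlap. MIR17HG at 4 h was at 4.57, 3.46, 4.69 and 3.7 CPM in DMSO and at 7.84, 10.3, 11.5 and 11.9 CPM with SK-3-91. MIR17HG at 8 h was at 5.26, 5.35, 5.99 and 5.28 CPM in DMSO and at 13.6, 11.9, 12.9 and 11.3 CPM with SK-3-91. The treated libraries lay above all controls at 4 and 8 h. MIR17HG had log2 fold changes of -0.26 ± 0.12 (1 h, adjusted p = 0.07), 1.33 ± 0.13 (4 h) and 1.18 ± 0.13 (8 h, adjusted p = 5.9e-11). MIR497HG rose by 1.65 ± 0.09 at 8 h but is uncertain, with 38.2% of its exon bases opposite other exons. C17orf49 is the gene that overlaps it most. MIR155HG, the host of miR-155, was called at no time, with 0.03 ± 0.12, 0.16 ± 0.14 and -0.19 ± 0.15.

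Host transcripts also moved in DMSO alone. From 1 to 8 h in DMSO 9 of 18 hosts fell (24.7% of all genes) and 0 rose (22.6%), with a median of -0.20 beside -0.01 over all genes. GAS5 fell by 0.37 ± 0.05, SNHG15 by 0.37 ± 0.05 and SNHG17 by 0.59 ± 0.05 in the controls. Each treated group was set against the control of its own time, and whether this decline entered the 8 h values was not tested.

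Cytosolic ribosomal protein genes, which encode the proteins of the same particle that snoRNAs help to mature, were compared as a list taken by symbol. It also holds genes named as like these, such as RPL7L1, RPL22L1, RPL26L1 and RPS27L. Of 73 measured, 59 were higher and 2 lower at 1 h, 71 higher and 1 lower at 4 h, and 70 higher and 2 lower at 8 h, beside 24.9% and 29.4% of all genes at 1 h, 42% and 45.9% at 4 h and 41.3% and 48.1% at 8 h. The list had medians of 0.25, 1.19 and 1.39. RPL7L1 was lower at all 3 times, and the other lower gene was RPS3A at 1 h and RPL26L1 at 8 h. At 1 h the host median was on the other side of 0 from this list, and no test of that difference was made. Of 22 protein-coding snoRNA hosts, 9 were higher and 9 lower at 1 h and 11 higher and 8 lower at 8 h (median 0.11), among them HSPA8 at -1.92 and STRN4 at 2.05. Of 17 snoRNP protein genes, 8 were higher and 1 lower at 1 h and 7 higher and 10 lower at 8 h. ZNHIT6, a C/D particle assembly factor, was at 1.72 and GAR1, an H/ACA core protein, at -1.35 at 8 h.

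Genes for RNA decay and termination were also counted, beside 41.3% of all genes higher and 48.1% lower at 8 h. Of 17 nonsense-mediated decay factors, 5 were higher and 11 lower at 8 h (median -0.25), with SMG9 at -3.23. Of 19 nuclear exosome and adaptor genes, 4 were higher and 15 lower at 8 h (median -0.76), with the exosome core subunit EXOSC3 at -3.78 and the poly(A) polymerase TENT4A at 2.49. Of 17 Integrator and termination genes, 6 were higher and 10 lower (median -0.39), INTS5 being at -2.48. Of 15 microRNA pathway genes, 8 were higher and 6 lower, with DICER1 at 2.05 and XPO5 at -1.31. These values are log2 fold changes relative to all genes, whose own 8 h median was -0.11.

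Noncoding genes whose names the rule does not take were counted as a list. Of 12 such genes measured, 8 were higher and 3 lower at 8 h, beside 41.3% and 48.1% of all genes (median 0.71). ZFAS1, a C/D box host, was at -0.11, 1.2 and 1.8 at 1, 4 and 8 h, DANCR at 0.14, 0.95 and 1.01, and PVT1, the neighbour of MYC, at -0.17, 1.19 and 2.39. EBLN3P was at -2.0 and TUG1 at -1.41 at 8 h.

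Intergenic transcripts moved in both directions. At 1 h 7 of 37 were higher and 10 lower (24.9% and 29.4% of all genes were), at 4 h 14 higher and 19 lower (42% and 45.9%), and at 8 h 12 higher and 19 lower (41.3% and 48.1%). Their median log2 fold changes were 0.00, -0.20 and -0.51 at 1, 4 and 8 h. Without DMSO replicate 3 the count of higher intergenic transcripts at 1 h was 4, and that of all 9822 genes was 2092. Their summed share of counted reads at 8 h was 0.0673% to 0.0701% in DMSO and 0.0425% to 0.0482% with SK-3-91, without overlap. In all, 5 were higher at all 3 times (LINC02603, LINC00641, LINC00926, LINC00174 and LINC01278). These were 13.5% of the class, beside 14.7% of all genes. Lower at all 3 times were 9 (24.3%, beside 16.3%).

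LINC00926 had the highest log2 fold change of the 198 members at 8 h. It was at 1.1, 1.04, 1.11 and 1.43 CPM in DMSO and at 1.73, 2.52, 2.05 and 2.2 CPM with SK-3-91 at 1 h. LINC00926 at 4 h was at 1.25, 1.13, 1.44 and 1.47 CPM in DMSO and at 15.9, 12.5, 17.2 and 16.1 CPM with SK-3-91. LINC00926 at 8 h was at 0.962, 1.07, 1.02 and 0.966 CPM in DMSO and at 43.8, 37.2, 27.3 and 41.6 CPM with SK-3-91. It was near 1 CPM in every control library and rose at each step with treatment, without overlap at any time. LINC00926 had log2 fold changes of 0.86 ± 0.24 (1 h, adjusted p = 0.0025), 3.53 ± 0.16 (4 h) and 5.22 ± 0.15 (8 h, adjusted p = 1.2e-29). By limma-trend on the deposited log2 values the 1 h difference did not pass the threshold, and the DMSO level rests on 62 reads over 4 libraries at 8 h.

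LINC00641 was at 12.7, 13.5, 17.3 and 14.3 CPM in DMSO and at 22.2, 21.7, 22.1 and 22.8 CPM with SK-3-91 at 1 h. LINC00641 at 4 h was at 11.4, 9.7, 9.32 and 9.82 CPM in DMSO and at 29.3, 30.5, 40.3 and 27.8 CPM with SK-3-91. LINC00641 at 8 h was at 11.3, 8.62, 9.86 and 9.21 CPM in DMSO and at 58.3, 56.7, 49.1 and 64.4 CPM with SK-3-91. All treated libraries exceeded all controls at each time. LINC00641 had log2 fold changes of 0.62 ± 0.10 (1 h, adjusted p = 1.2e-06), 1.67 ± 0.10 (4 h) and 2.55 ± 0.10 (8 h, adjusted p = 5.1e-25).

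LINC01278 was at 26.2, 20.6, 22.5 and 25.3 CPM in DMSO and at 79.2, 72.8, 78.9 and 87.3 CPM with SK-3-91 at 8 h, with no overlap. Its log2 fold change was 0.20 ± 0.07 at 1 h, where leaving out DMSO replicate 2 ended the call (adjusted p = 0.059), 1.41 ± 0.07 at 4 h and 1.75 ± 0.07 at 8 h. LINC01816 was called at 4 and 8 h and rose by 2.31 ± 0.18 at 8 h. LINC02603 had 1.88 ± 0.25, 3.69 ± 0.24 and 4.14 ± 0.21 at 1, 4 and 8 h but is uncertain, with 85.7% of its exon bases opposite other exons.

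Among intergenic transcripts that fell, LINC01366 changed most at 8 h. It was at 8.25, 9.5, 9.57 and 9.17 CPM in DMSO and at 8.64, 11, 10.2 and 8.39 CPM with SK-3-91 at 1 h, with overlap. LINC01366 at 4 h was at 10.1, 11.3, 11.9 and 10.8 CPM in DMSO and at 2.93, 3.42, 3.23 and 2.76 CPM with SK-3-91. LINC01366 at 8 h was at 12.1, 10, 11.6 and 11.5 CPM in DMSO and at 0.843, 1.24, 2.03 and 1.3 CPM with SK-3-91. The treated level dropped below all controls by 4 h and further by 8 h, with log2 fold changes of 0.07 ± 0.10, -1.84 ± 0.13 and -3.09 ± 0.18 (adjusted p at 8 h = 4.5e-19).

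LINC00909 and LINC02693 fell by 1 h, and LINC02693 matched a gene typed as protein-coding in the annotation. LINC00909 was at 14.4, 15, 16.5 and 15.2 CPM in DMSO and at 6.91, 8.78, 7.16 and 11.1 CPM with SK-3-91 at 1 h. LINC00909 at 4 h was at 16.4, 16.2, 14.6 and 14 CPM in DMSO and at 2.09, 2.9, 2.4 and 2.45 CPM with SK-3-91. The groups did not overlap, and it had log2 fold changes of -0.85 ± 0.10 (1 h), -2.63 ± 0.15 (4 h) and -2.55 ± 0.17 (8 h, adjusted p = 1.6e-17). LINC02693 was at 80, 74.5, 80.6 and 84.1 CPM in DMSO and at 43.4, 48.3, 49.6 and 47.4 CPM with SK-3-91 at 1 h. LINC02693 at 4 h was at 96.4, 99.1, 91.9 and 95.2 CPM in DMSO and at 12.4, 13.9, 16.3 and 14.8 CPM with SK-3-91. LINC02693 at 8 h was at 87.2, 89.3, 90.4 and 84.5 CPM in DMSO and at 18.8, 22.2, 18.6 and 20.7 CPM with SK-3-91. It was below all controls throughout, with log2 fold changes of -0.76 ± 0.05, -2.74 ± 0.06 and -2.12 ± 0.07 (adjusted p at 4 h = 6.7e-32).

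Other intergenic decreases at 8 h were LINC01550 at -2.31 ± 0.14, LINC00977 at -1.9 ± 0.10 and LINC00999 at -1.46 ± 0.25. LINC00977 and LINC00999 had no match in the annotation, so their overlap was not measured. LINC00847 was at -2.77 ± 0.15 and is uncertain, with 20.9% of its exon bases opposite other exons. HEIH is the gene that overlaps it most. LINC00887, LINC00689 and LINC01000 were called at no time.

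**Figure D4:**
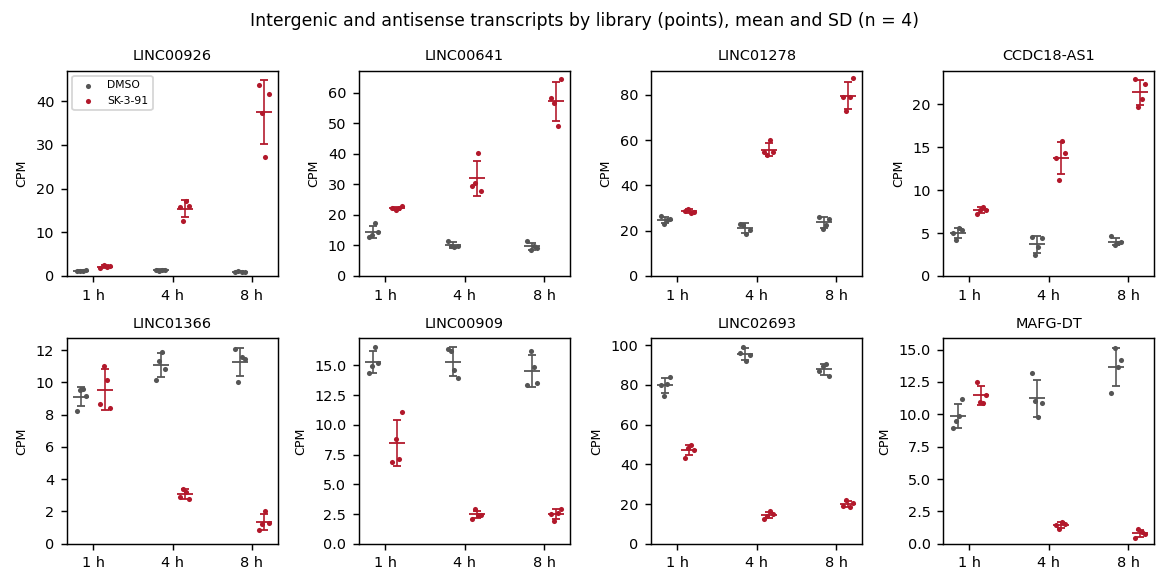
CPM (TMM-scaled) of 6 intergenic transcripts, CCDC18-AS1 and MAFG-DT in each DMSO (grey) and SK-3-91 (red) library at 1, 4 and 8 h, with the mean and SD of 4 libraries; each panel has its own vertical axis from 0. The top row rises and the bottom row falls with SK-3-91, with no overlap between the groups at 4 or 8 h.

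Antisense and divergent transcripts were divided almost evenly. At 1 h 23 of 143 were higher (24.9% of all genes were) and 26 lower (29.4%). At 4 h 59 were higher (42%) and 55 lower (45.9%), and at 8 h 59 were higher (41.3%) and 60 lower (48.1%). Their medians were 0.00, 0.01 and 0.02 at these times. With no scaling factor applied, 41 were higher and 75 lower at 4 h, and 41 higher and 85 lower at 8 h. All 9822 genes then gave 2871 and 5752 at 4 h, and 2778 and 6145 at 8 h. Of the 143, 50 (35.0%) were higher at both 4 and 8 h, beside 33.2% of all genes. Lower at both were 46 (32.2%, beside 38.2%), and 6 were called at no time (4.2%, beside 1.82%).

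The promoters of CCDC18-AS1 and MAFG-DT are shown because these 2 moved far apart and at 8 h in directions opposite to the genes they are named for. Each window runs from 250 bases before to 50 after the RefSeq start (GRCh38.p14), and capitals mark GGGCGG on either strand (GC box) in CCDC18-AS1 and CACGTG (E-box) in MAFG-DT.
CCDC18-AS1 (chr1:93345762-93346061, minus strand): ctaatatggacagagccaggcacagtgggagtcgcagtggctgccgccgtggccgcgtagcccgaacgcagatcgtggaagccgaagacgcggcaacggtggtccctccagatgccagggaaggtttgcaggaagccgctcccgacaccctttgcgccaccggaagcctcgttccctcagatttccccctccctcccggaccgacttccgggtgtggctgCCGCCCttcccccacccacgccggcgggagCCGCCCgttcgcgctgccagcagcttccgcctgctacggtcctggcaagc
MAFG-DT (chr17:81927579-81927878, plus strand): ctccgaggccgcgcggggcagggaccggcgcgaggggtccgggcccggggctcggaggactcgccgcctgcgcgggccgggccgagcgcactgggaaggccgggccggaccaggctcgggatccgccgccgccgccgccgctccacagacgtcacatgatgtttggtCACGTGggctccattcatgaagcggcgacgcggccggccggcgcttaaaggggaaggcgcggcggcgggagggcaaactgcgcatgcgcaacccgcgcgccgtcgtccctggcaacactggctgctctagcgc
GGGCGG was found in 64.2% of the 134 windows of antisense or divergent members, in 67% of the windows of genes in the count table and in 45% of all RefSeq windows, and CACGTG in 9.7%, 9.91% and 7.26%. Also searched on both strands, and given in the same order, were TGACGTCA (2.24%, 2.95%, 1.85%), CCAAT (24.6%, 35.2%, 34.6%), TATAAA (5.97%, 5.67%, 11.5%) and GTAAACA (3.73%, 2.54%, 3.42%).

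CCDC18-AS1 was at 4.96, 4.16, 5.6 and 5.33 CPM in DMSO and at 7.19, 7.69, 8.05 and 7.7 CPM with SK-3-91 at 1 h. CCDC18-AS1 at 4 h was at 4.51, 2.46, 3.38 and 4.4 CPM in DMSO and at 13.8, 11.2, 15.7 and 14.3 CPM with SK-3-91. CCDC18-AS1 at 8 h was at 4.62, 3.65, 3.81 and 3.93 CPM in DMSO and at 22.9, 19.7, 20.7 and 22.3 CPM with SK-3-91. Treated libraries were above all controls at each time and rose with time. CCDC18-AS1 had log2 fold changes of 0.61 ± 0.13 (1 h, adjusted p = 0.00011), 1.9 ± 0.13 (4 h) and 2.42 ± 0.13 (8 h, adjusted p = 6.6e-21). CCDC18, a coiled-coil protein gene, was at 0.22, -0.43 and -0.31. Of the exon bases of CCDC18-AS1, 4.39% lie opposite other exons, DR1 being the gene that overlaps most.

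MAFG-DT had the lowest log2 fold change of the 198 members at 8 h. It was at 8.96, 9.5, 9.83 and 11.2 CPM in DMSO and at 12.5, 11, 10.8 and 11.5 CPM with SK-3-91 at 1 h, where the groups overlapped. MAFG-DT at 4 h was at 13.2, 11, 9.82 and 10.9 CPM in DMSO and at 1.46, 1.14, 1.67 and 1.53 CPM with SK-3-91. MAFG-DT at 8 h was at 11.6, 15.1, 13.7 and 14.2 CPM in DMSO and at 0.422, 1.1, 0.922 and 0.725 CPM with SK-3-91. The treated level was far below all controls from 4 h on, resting on 21 reads over the 4 treated libraries at 8 h. MAFG-DT had log2 fold changes of 0.21 ± 0.10 (1 h, adjusted p = 0.061), -2.94 ± 0.17 (4 h) and -4.1 ± 0.21 (8 h, adjusted p = 2.8e-21). MAFG, a small MAF transcription factor that pairs with NRF2 and BACH proteins, was at -0.48, 1.77 and 3.0 (adjusted p at 8 h = 8.1e-36). No exon bases of MAFG-DT lie opposite another exon in the annotation.

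GAS6-AS1 was at 3.16, 2.67, 3.0 and 2.28 CPM in DMSO and at 2.9, 2.72, 2.87 and 2.68 CPM with SK-3-91 at 1 h, with overlap. GAS6-AS1 at 8 h was at 1.47, 0.441, 1.02 and 0.966 CPM in DMSO and at 11.4, 9.66, 14.2 and 9.42 CPM with SK-3-91. The groups were separate at 8 h, and in DMSO alone GAS6-AS1 fell by 1.5 ± 0.23 on the log2 scale from 1 to 8 h. The log2 fold change was 2.89 ± 0.17 at 4 h and 3.49 ± 0.19 at 8 h (adjusted p = 5.4e-20), and GAS6, a ligand of the TAM receptor kinases, was at 2.05 and 2.08.

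DBH-AS1 was at 11.5, 8.94, 7.82 and 8.38 CPM in DMSO and at 28.8, 27, 23.2 and 31.5 CPM with SK-3-91 at 8 h, without overlap. Its log2 fold change was 0.43 ± 0.10, 1.42 ± 0.10 and 1.6 ± 0.10 at 1, 4 and 8 h, and DBH, the enzyme that makes noradrenaline, was at 1.6 at 8 h. SDCBP2-AS1 rose by 2.43 ± 0.17 and FAM13A-AS1 by 2.12 ± 0.18 at 8 h.

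LCT-AS1 was at 42.7, 40.1, 38.9 and 40.6 CPM in DMSO and at 28.6, 28.7, 28.9 and 26.8 CPM with SK-3-91 at 1 h. LCT-AS1 at 8 h was at 48, 46.1, 50 and 43.9 CPM in DMSO and at 4.5, 6.35, 5.53 and 6.67 CPM with SK-3-91. All treated libraries were lower at each time, with log2 fold changes of -0.52 ± 0.06, -2.42 ± 0.08 and -3.02 ± 0.10 (adjusted p at 8 h = 1.1e-27). LCT, the lactase gene, was at -0.32, -2.32 and -2.64, and LCT-AS1 had no match in the annotation, so its overlap was not measured.

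BCDIN3D-AS1 fell most of the members at 1 h. It was at 7.8, 8.07, 6.71 and 6.37 CPM in DMSO and at 1.66, 2.59, 1.77 and 2.54 CPM with SK-3-91 at 1 h, without overlap. BCDIN3D-AS1 had log2 fold changes of -1.75 ± 0.16 (1 h, adjusted p = 2.2e-12), -2.9 ± 0.21 (4 h) and -2.18 ± 0.21 (8 h). BCDIN3D, an RNA methyltransferase, was at -1.5, -2.72 and -1.92. BCDIN3D-AS1 is uncertain, with 22.3% of its exon bases opposite other exons, of which BCDIN3D is the gene that overlaps most. LACTB2-AS1 at -2.38 ± 0.35 and CARD8-AS1 at -0.99 ± 0.20 were further decreases at 8 h with under 20% of bases opposite other exons. AP4B1-AS1 at -2.09 ± 0.17 and PITPNA-AS1 at -2.24 ± 0.19 are uncertain.

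The gene a member is named for was in the table for 116 antisense or divergent members, 4 of which had no match in the annotation. At 8 h both changed in the same direction in 72 pairs and in opposite directions in 21. Of all genes 89.4% were called at 8 h (41.3% higher, 48.1% lower), so most pairs of any genes would both be called. Pairs of unrelated genes were not counted, so how far these numbers exceed such pairs was not tested. Where under 20% of the member's exon bases lay opposite other exons (63 pairs), 38 went the same way and 13 opposite ways, and Pearson's r of the log2 fold changes across pairs was 0.32. Where 20% or more did (49 pairs), 31 went the same way and 8 opposite ways, and r was 0.58. The r values describe pairs measured in the same libraries, and reads of overlapping exons can enter both members of a pair. At 1 h the r was 0.08 with under 20% overlap and 0.62 with 20% or more.

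The 13 pairs that went opposite ways with under 20% overlap included MAFG-DT and CCDC18-AS1 above. THUMPD3-AS1 was at 9.41, 8.85, 11.8 and 10.2 CPM in DMSO and at 6.5, 5.86, 7.57 and 5.98 CPM with SK-3-91 at 1 h. THUMPD3-AS1 at 8 h was at 7.95, 9.13, 7.75 and 7.15 CPM in DMSO and at 15.9, 15.7, 16.6 and 15.5 CPM with SK-3-91. It lay below the controls at 1 h and above them at 8 h, with log2 fold changes of -0.63 ± 0.11, 0.55 ± 0.11 and 0.99 ± 0.11 (adjusted p at 8 h = 5.2e-11). THUMPD3, a transfer RNA methyltransferase, was at -0.10, -1.67 and -2.35. At 8 h HHIP-AS1 was at -2.11 and HHIP, a Hedgehog-binding inhibitor, at 1.75. STARD4-AS1 was at -1.59 and STARD4, a sterol carrier, at 1.64. ZEB1-AS1 was at -1.64 and ZEB1, a zinc finger repressor, at 0.84. COX10-AS1 was at -0.51 and COX10, which acts in haem A synthesis, at 1.66.

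**Figure D5:**
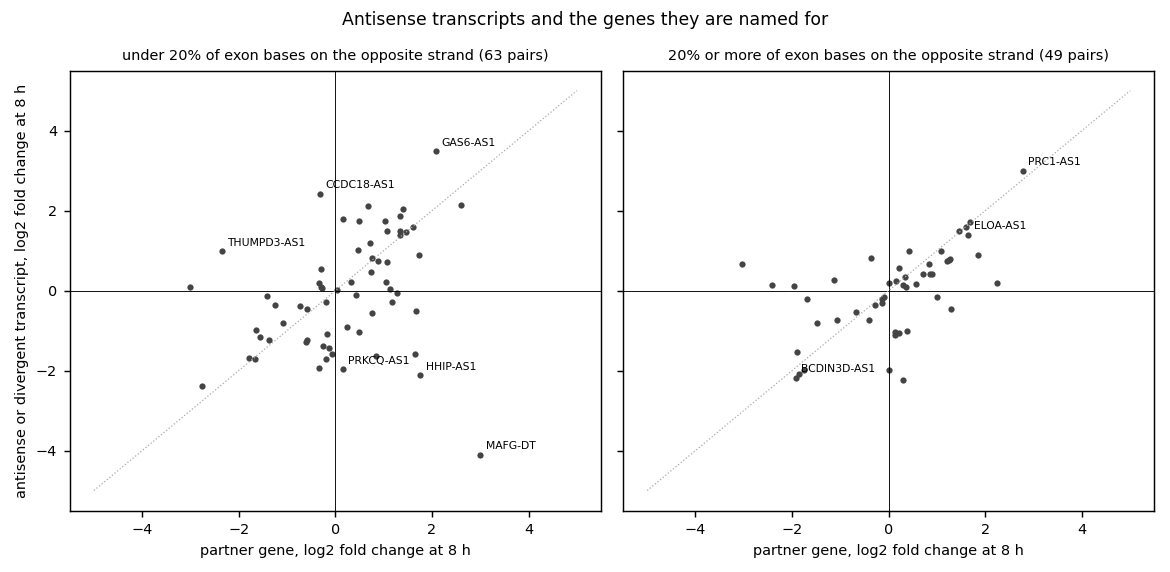
Log2 fold change at 8 h of antisense or divergent transcripts (vertical) against that of the genes they are named for (horizontal), for 63 pairs with under 20% and 49 pairs with 20% or more of the transcript's exon bases opposite other exons. The dotted line marks equal change; MAFG-DT, at -4.10 with its partner at 3.0, lies farthest from it.

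In all, 19 members (9.60%) were called in opposite directions at 2 times, against 21.2% of all genes. Of these, 13 were lower at 1 h and higher at 8 h (6.57% of members, 9.93% of all genes). Another 4 were higher at 1 h and lower at 8 h (2.02% and 7.90%). SNRK-AS1 was at 44.6, 46.9, 43 and 43.8 CPM in DMSO and at 28, 25.9, 29.1 and 27.4 CPM with SK-3-91 at 1 h. SNRK-AS1 at 8 h was at 39.2, 38.5, 41.1 and 38.4 CPM in DMSO and at 113, 112, 109 and 106 CPM with SK-3-91. The order was inverted without overlap, with log2 fold changes of -0.69 ± 0.05, 1.0 ± 0.05 and 1.48 ± 0.05. It is uncertain, since 56% of its exon bases lie opposite exons of SNRK, an AMPK-related kinase gene at -0.73, 0.91 and 1.44. ELOA-AS1 (-0.81 at 1 h, 1.4 at 8 h) and PRC1-AS1 (-0.17 and 3.0) are uncertain in the same way. The 1 h call of PRC1-AS1 was lost without DMSO replicate 1 or 4 or without SK-3-91 replicate 2 or 3 (adjusted p from 0.071 to 0.16).

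PAXBP1-AS1, with 8.21% of its exon bases opposite other exons, went from -0.57 ± 0.13 at 1 h to 0.90 ± 0.14 at 8 h. LINC00977 went the other way, from 0.18 ± 0.06 to -1.9 ± 0.10, and LINC01184 from 0.17 ± 0.06 to -0.51 ± 0.07, and the 1 h calls of both were lost without DMSO replicate 3 (adjusted p = 0.066 and 0.071). Without scaling factors the 8 h values of EPB41L4A-AS1, IRF1-AS1 and LIMD1-AS1 turned from 0.18, 0.27 and 0.25 to -0.25, -0.16 and -0.18, and the 4 h value of MAPKAPK5-AS1 from 0.24 to -0.06. OIP5-AS1 was called only at 4 h (adjusted p = 0.013) and was at 0.11 ± 0.07, -0.19 ± 0.07 and -0.13 ± 0.08.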

How the data were processed

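RNA of MOLT4 cells treated with SK-3-91 or DMSO for 1, 4 or 8 h was sequenced as single-end reads on the BGISEQ-500, per the labels' protocols. The authors deposited whole-number read counts per gene, not normalized, for 24 libraries. The authors also deposited a table of log2 values, which, taken out of the log, lay on a line against that library's counts (largest relative gap 3.9e-07%), whatever the gene width. The genome build hg19 and the tool edgeR are named, per the submitters' processing notes. Which aligner, counter and annotation were used, and whether strand was read, is not given in the sources used here. Genes had a mean count of at least 32, and 4 of 9822 genes had no symbol.

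Counts were fitted with edgeR 4.0.16 under R 4.3.3, using TMM factors, filterByExpr (0 genes removed), 6 group means over all 24 libraries, quasi-likelihood tests and Benjamini-Hochberg adjustment over all genes at 0.05. The procedure was tested on simulated data in which few genes changed, in both directions alike. That setting does not cover the calls at 4 and 8 h, where most genes were called. Each SE was derived from the F statistic of its test, and CPM are TMM-scaled. Totals were compared with exact permutation tests. Depth limits the precision of low members, whose mean count ranged from 32.3 to 12115 over the 198. Opposite-strand exons and shared words were computed from GENCODE release 29, in which 186 of 198 members matched by symbol and 4 by a RefSeq synonym (IRF1-AS1, RAB30-DT, SNHG29 and LINC02693, the last of them to a gene typed there as protein-coding). Sequences are from RefSeq (GRCh38.p14), where 151 of 198 members had 177 promoter windows.

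Alternatives were RLE, upper-quartile or no scaling factors, a mean count of at least 100, no filter, a minimum fold of 1.5, only the groups compared, a replicate block, leaving out each library, members under the 20% limits, limma-trend (limma 3.58.1) on the deposited log2 values, and DESeq2 1.42.0. The members, the gene lists and the rules were chosen with earlier results of these data known. Named members were 20 fixed symbols where measured, and per class and time up to 4 increases and 4 decreases with a mean CPM of at least 2. Members called in opposite directions at 2 times were also named, as were partners of named antisense members and up to 4 genes per list. MIR210HG was left out by the rule, and HHIP-AS1, STARD4-AS1 and ZEB1-AS1, the genes called at no time and some list genes were named after their values were seen.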

Additional observations from a re-analysis of the deposited data

Results flagged for a closer look

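In each group of 4 libraries the highest or lowest value was set against the others with Dixon's ratio at its 95% critical value for 26 members, 156 groups in all. In 5 groups a library stood apart, and chance gives about 1 in 20. SNHG1 was at 190.8 CPM in 1 DMSO library at 8 h, above the others at 176 to 178, and SNHG5 was at 47.0 CPM in 1, below the others at 51.6 to 51.8. MIR17HG was at 5.99 CPM in 1 DMSO library at 8 h, with the others at 5.26 to 5.35. LINC00926 was at 1.43 CPM in 1 DMSO library at 1 h, with the others at 1.04 to 1.11. LCT-AS1 was at 26.8 CPM in 1 SK-3-91 library at 1 h, with the others at 28.6 to 28.9.

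For 19 members the response to SK-3-91 was called in opposite directions at 2 times. They were chosen for this, so the size of the change between those times (log2 scale) is a description, with no test. From 1 to 8 h the response of hosts rose by 1.26 in SNHG15, 1.14 in GAS5, 0.85 in SNHG8 and 0.77 in SNHG17. Among antisense transcripts it rose by 3.17 in PRC1-AS1, 2.21 in ELOA-AS1, 2.17 in SNRK-AS1, 1.62 in THUMPD3-AS1, 1.47 in PAXBP1-AS1, 1.04 in MAPKAPK5-AS1, 0.64 in IRF1-AS1 and 0.45 in EPB41L4A-AS1. It fell by 0.76 in SH3BP5-AS1 and fell by 1.1 in COX10-AS1. Among intergenic transcripts it rose by 1.64 in LINC01089, fell by 2.07 in LINC00977 and fell by 0.68 in LINC01184. From 4 to 8 h it rose by 0.74 in LIMD1-AS1 and fell by 0.78 in ATP2A1-AS1. Some of the calls were marginal. At 1 or more of their times, calls of ATP2A1-AS1, COX10-AS1, EPB41L4A-AS1, PRC1-AS1, LIMD1-AS1, LINC00977 and LINC01184 were lost when a library was left out, in several of them whichever of 2 or more libraries that was.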

How the results depend on the processing

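Direction at 4 and 8 h depended on the scaling for small changes. With unscaled counts and by limma-trend on the deposited log2 values respectively, the 8 h log2 fold change became -0.21 and -0.17 in GAS5, -0.22 and -0.17 in SNHG17, -0.037 and -0.035 in SNHG8, -0.25 and -0.15 in EPB41L4A-AS1, -0.16 and -0.10 in IRF1-AS1, and -0.18 and -0.17 in LIMD1-AS1. MAPKAPK5-AS1 at 4 h became -0.056 and -0.038, and the change from 1 to 4 h of IRF1-AS1 became -0.030 and -0.028. Hosts at 8 h were then 7 higher and 9 lower, and 7 higher and 8 lower, with 7 lower by upper-quartile factors. Hosts lower at 4 h were 10 without scaling. All 9822 genes at 8 h gave 2778 higher and 6145 lower without scaling, and 2836 and 6087 by limma-trend. By upper-quartile factors 5307 of all genes were lower at 8 h, and without scaling 5752 were lower at 4 h. Hosts higher at 1 h were 3 by RLE factors, 2 with only the groups compared, 1 by DESeq2 and from 0 to 1 when a library was left out. Higher over all genes were 3249 by RLE factors, 2893 of 9817 with only the groups compared, and 3214 by DESeq2.

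Members under the 20% limits (114 of 198) gave 18 higher and 23 lower at 1 h, 43 and 45 at 4 h, and 47 and 48 at 8 h. Their change from 1 to 4 h was up in 43 and down in 39, from 4 to 8 h up in 32 and down in 24, and in DMSO from 1 to 8 h up in 21 and down in 27. Of antisense ones 13 were higher and 13 lower at 1 h, 26 and 30 at 4 h, and 29 and 35 at 8 h. Of intergenic ones 3 were lower at 1 h, 11 at 4 h and 11 at 8 h, and of hosts 2 were lower at 8 h. These sets hold fewer members, and the shares of all genes are those given above, since the same calls were counted.

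With a mean count of at least 100, 49 members were higher and 50 lower at 4 h, and 54 and 50 at 8 h. The change from 1 to 4 h was then up in 48 and down in 44, and 31 fell in DMSO. Antisense members were 16 lower at 1 h, 38 higher and 29 lower at 4 h, and 31 lower at 8 h, and intergenic members were 6 higher at 4 h and 5 higher at 8 h. This filter tests fewer genes. All 8705 tested gave 2666 lower at 1 h, 3675 higher and 4067 lower at 4 h, and 3667 and 4243 at 8 h. Their change from 1 to 4 h was up in 3615 and down in 3566, and 2340 fell in DMSO.

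With a minimum fold of 1.5, 1 member was higher and 9 lower at 1 h, and 47 and 51 at 4 h. The change from 1 to 4 h was up in 37 and down in 36, from 4 to 8 h up in 8 and down in 10, and in DMSO up in 0 and down in 1. Antisense members were 0 higher and 2 lower at 1 h, 31 and 34 at 4 h, and 39 higher at 8 h. Intergenic members were 1 higher and 2 lower at 1 h. Hosts were 5 lower at 1 h, and 6 higher and 1 lower at 8 h. Of all 9822 genes, 5 were higher and 573 lower at 1 h, 1938 and 2525 at 4 h, and 2496 and 3052 at 8 h. Their change from 1 to 4 h was up in 1523 and down in 1934, and from 4 to 8 h in 884 and 921. In DMSO from 1 to 8 h 74 of all genes were up and 27 down.

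When each library was left out in turn, 24 to 31 members were higher and 41 to 46 lower at 1 h, 75 to 81 and 76 to 80 at 4 h, and 78 to 83 and 82 to 85 at 8 h. Of all 9822 genes, 2088 to 2313 were higher and 2701 to 2815 lower at 1 h. At 4 h all genes gave 4059 to 4103 and 4435 to 4468, and at 8 h 4007 to 4047 and 4642 to 4697. Intergenic members higher at 1 h were from 4 to 7, the lowest without DMSO replicate 3. The replicate block gave 28 higher and 45 lower members at 1 h, 79 and 79 at 4 h, and 82 and 83 at 8 h. Over all genes it gave 2448 and 2891, 4123 and 4504, and 4059 and 4714 at these times. Correlations of same-numbered libraries ranged from -0.12 to 0.02 and none was best with its own number. They gave no sign of pairing by number, but a small shared effect could be missed.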
